A study of Mus musculus with 9 samples.

Results

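The genes described here encode the machinery that brings newly made proteins into the endoplasmic reticulum (ER) and attaches N-linked sugar chains to them. They were chosen by symbol as the named members of the signal recognition particle (SRP), its receptor, the Sec61 translocon, the translocon-associated protein (TRAP) complex, signal peptidase, oligosaccharyltransferase (OST) and the enzymes that make the lipid-linked oligosaccharide. All 37 were present in the deposited table of 33211 genes, and all 37 were among the 14220 genes with enough counts to be tested. Liver transcripts of C57BL/6 mice (C57BL6/J in the study's methods) were sequenced after feeding with a high-fat diet from freezer storage (HFDfre, 5 libraries) or from fridge storage (HFDfri, 4 libraries), and the comparison asks whether diet storage was accompanied by a difference in these transcripts. Per the study's methods, the mice were wild-type males aged 8 weeks at the start, both groups received the same diet for 7 weeks, and after opening the diet was held at -20 °C (HFDfre) or 4 °C (HFDfri) for 7 days before use. HFDfre served as the reference. The labels name separate samples without stating more about the animals, so p-values measure the spread between these samples.

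Proteins bound for secretion or for membranes carry a signal sequence that SRP recognises as it leaves the ribosome. SRP brings the ribosome to its receptor on the ER membrane, the ribosome then docks on the Sec61 channel, signal peptidase cuts the signal sequence off, and OST transfers a preassembled sugar chain from its dolichol carrier to asparagine residues of the growing protein. Hepatocytes, which secrete most plasma proteins, rely heavily on this route, and many of its genes are known targets of ATF6 and XBP1, transcription factors of the unfolded protein response.

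To show the regulatory sequence in front of these genes, the RefSeq promoter windows of 3 members whose groups did not overlap are printed here, 5′ to 3′ on the gene's strand (GRCm38.p6, 250 bases before the start site and 50 after it, 300 in all). Capitals mark CCACG on either strand, the half-site shared by the ER stress response elements that ATF6 and XBP1 bind. The Srpr window lies at chr9:35210953-35211252 on the plus strand, the Rpn1 window at chr6:88084223-88084522 on the plus strand and the Srp72 window at chr5:76974451-76974750 on the plus strand.
Srpr: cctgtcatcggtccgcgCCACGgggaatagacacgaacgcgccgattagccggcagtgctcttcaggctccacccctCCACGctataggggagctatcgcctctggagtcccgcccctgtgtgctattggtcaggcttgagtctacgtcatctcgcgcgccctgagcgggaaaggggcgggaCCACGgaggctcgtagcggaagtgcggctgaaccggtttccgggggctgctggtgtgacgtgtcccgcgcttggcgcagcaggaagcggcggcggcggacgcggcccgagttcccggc
Rpn1: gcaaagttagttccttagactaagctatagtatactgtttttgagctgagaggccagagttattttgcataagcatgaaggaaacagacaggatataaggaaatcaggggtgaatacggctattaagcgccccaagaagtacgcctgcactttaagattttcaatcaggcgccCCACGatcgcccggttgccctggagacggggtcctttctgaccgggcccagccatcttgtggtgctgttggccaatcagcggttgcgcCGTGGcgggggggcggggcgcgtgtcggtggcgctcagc
Srp72: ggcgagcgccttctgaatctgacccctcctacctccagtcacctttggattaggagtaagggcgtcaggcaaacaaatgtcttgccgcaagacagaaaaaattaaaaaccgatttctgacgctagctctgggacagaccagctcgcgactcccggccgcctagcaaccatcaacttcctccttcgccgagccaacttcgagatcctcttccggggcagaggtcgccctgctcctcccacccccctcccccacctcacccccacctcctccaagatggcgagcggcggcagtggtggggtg
The Srpr window held the half-site 3 times, starting 233, 173 and 68 bases before the start site. In Rpn1 it occurred 77 bases before and 11 bases after the start site, and in Srp72 it did not occur. Of the other members without overlap, Rpn2 held it in 0 of its 2 windows, which are not printed, and Srp68 and Dpagt1 had no window, so that it was present in 2 of the 4 genes with one.

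Promoter windows were found for 27 of the 37 members, with 28 windows because Rpn2 has a pair of them, and none was found for Sec11c, Tram1, Ssr2, Dpagt1, Srp68, Spcs3, Srp19, Tusc3, Alg2 and Sec61a1. The half-site was present in the windows of 19 of the 27 genes. It was present in 32.8% of all 32851 windows and in the windows of 50.7% of the 10226 tested genes with one. The full ER stress response element (CCAAT and CCACG separated by 9 bases, which contains the half-site) and its second form (ATTGG and CCACG separated by 1 base) were found in 0 of the 28 member windows, against 0.119% and 0.0365% of all windows. These matches describe the letters in these windows only.

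Most of these genes were slightly higher in HFDfri, and none passed the test after adjustment over all tested genes. By edgeR's quasi-likelihood test, 0 of the 37 had an adjusted p under 0.05, where 1.05% of all tested genes did. DESeq2 called 4 members, where 7.27% of all tested genes passed, and limma-voom called 1, where 1.04% passed. At an unadjusted p under 0.05, 11 members were higher in HFDfri, against 11.4% of all tested genes, and 0 were lower, against 9.79%. The sign was positive in 30 members and negative in 7. The median log2 fold change over the members was 0.21, from -0.17 for Ost4 to 0.81 for Dpm1, beside a median of -0.01 over all tested genes. In 6 members every HFDfri library lay above every HFDfre library, where 4.02% of tested genes did so, and in 0 members did every HFDfri library lie below, where 3.66% did. In GRCm38 these 6 were Srpr at chr9:35200175-35247973 (plus strand), Srp68 at chr11:116245166-116274217 (minus strand), Srp72 at chr5:76974683-76999937 (plus strand), Rpn1 at chr6:88084482-88105304 (plus strand), Rpn2 at chr2:157279017-157326319 (plus strand) and Dpagt1 at chr9:44326019-44333900 (plus strand). Of them, Srpr, Rpn1 and Rpn2 overlap exons of genes on the opposite strand. Since the use of strand is not stated, reads of such neighbours cannot be told apart. The same holds for other members, among them Spcs1 (252 bases shared with Glt8d1) and Sec61a2 (909 bases shared with Nudt5). In bulk tissue, fewer cells of a type and less RNA per cell cannot be told apart.

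**Figure D1:**
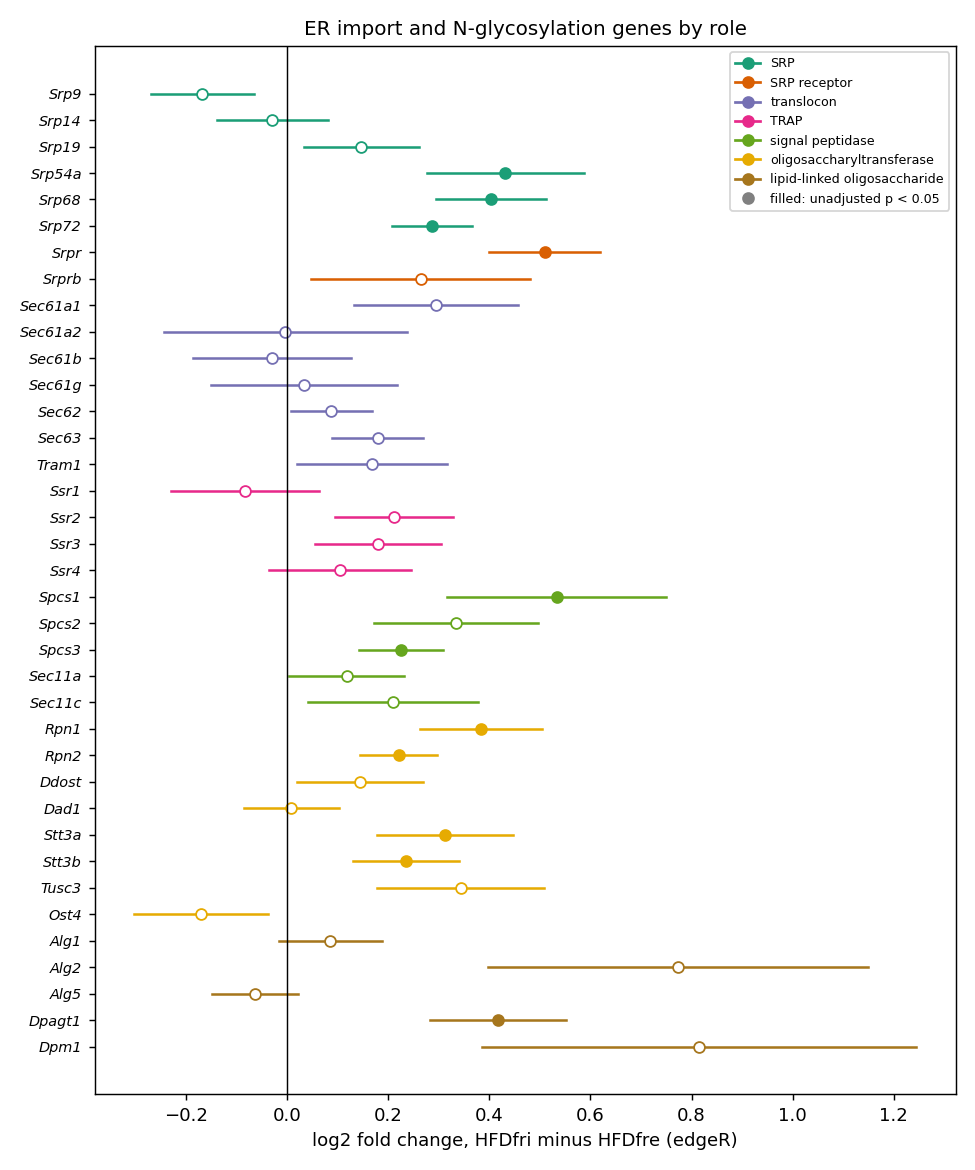
Log2 fold change (HFDfri minus HFDfre, horizontal axis, edgeR) of the 37 genes, coloured by role, with bars of 1 standard error (SE) and filled points at an unadjusted p under 0.05. The filled points, 11 in all, lie to the right of 0, and 7 open points lie to the left of it.

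Among the targeting genes, Srpr, which encodes the SRP receptor subunit that binds SRP and GTP, gave the smallest p of all members. Its level was 72.7, 84.3, 66.8, 88.1 and 77.1 CPM (a count as its share of the TMM-scaled library total) in HFDfre 1 to 5 and 101.1, 105, 131 and 106 CPM in HFDfri 1 to 4. The groups did not overlap, and HFDfri 3 stood highest. The log2 fold change was 0.51 ± 0.11 (SE), a fold of 1.42, with an adjusted p of 0.05004 by edgeR, so that it missed the threshold of 0.05 narrowly. It was called under 7 of 21 alternative settings, with an adjusted p between 0.00212 and 0.408 over them. Srprb, the membrane anchor of the receptor, had a log2 fold change of 0.26 ± 0.22 (SE), and its counts are treated with those of an overlapping gene further on.

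Of the SRP subunits, Srp68 and Srp72 form a dimer that lies outside the Alu domain of the particle. Srp68 was at 24.3, 26.2, 25.9, 27.4 and 29.4 CPM in HFDfre and at 32.0, 32.9, 43.6 and 32.5 CPM in HFDfri. Its log2 fold change was 0.40 ± 0.11 (SE) and edgeR's adjusted p was 0.0854. All 4 HFDfri libraries were above all HFDfre libraries, with HFDfri 3 well above the rest.

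Srp72 was at 50.9, 55.7, 50.3, 52.3 and 50.2 CPM in HFDfre and at 63.7, 60.7, 69.1 and 59.4 CPM in HFDfri. The groups were again separate, and HFDfri 3 was the highest library. The log2 fold change was 0.29 ± 0.08 (SE) and edgeR's adjusted p was 0.0900. Srp54a, the GTPase that binds the signal sequence, differed by 0.43 ± 0.15 (SE) on the log2 scale, with an unadjusted p of 0.0163 in the same edgeR fit. It has close copies, Srp54b and Srp54c, between which the authors' counting could divide reads. Their log2 fold changes were 0.40 and 0.25 in the same fit, and the division of reads was not tested. The other SRP members lay nearer to 0, at 0.15 for Srp19, -0.03 for Srp14 and -0.17 for Srp9 on the log2 scale. Srp9 and Srp14 are the Alu-domain pair that slows the ribosome. Over the 6 SRP genes the median log2 fold change was 0.22.

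**Figure D2:**
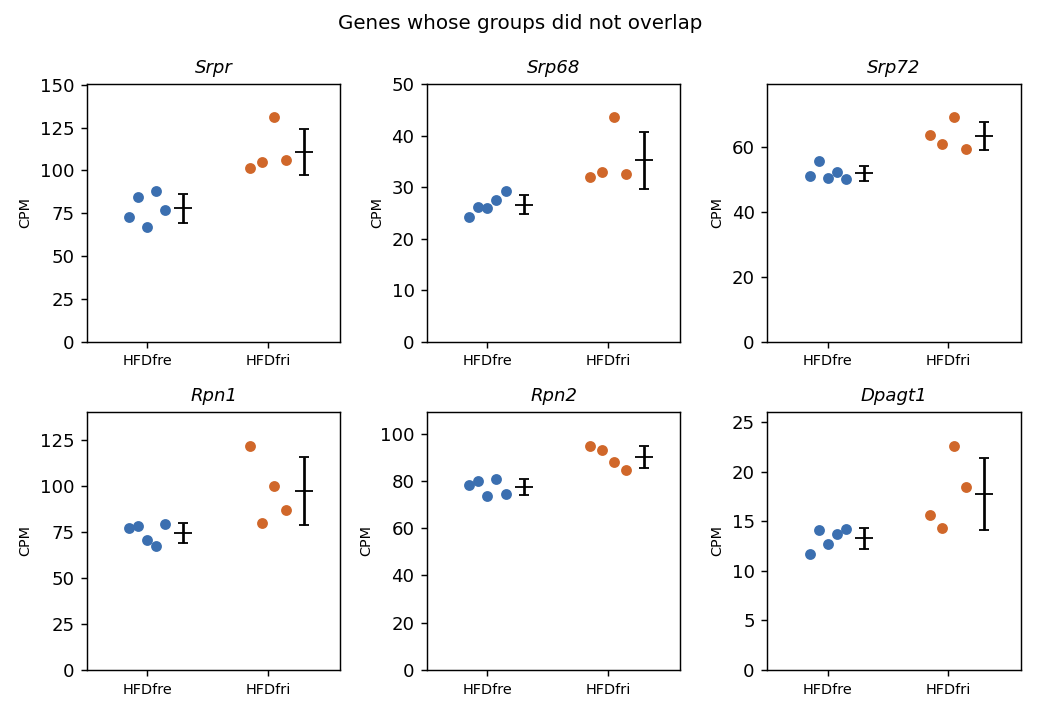
Level in CPM (vertical axes, from 0) of the 6 genes whose groups did not overlap, with 1 point per library and the mean ± SD beside each group (HFDfre, n = 5, HFDfri, n = 4). For Srpr, Srp68, Srp72 and Dpagt1 the highest point is HFDfri 3, and for Rpn1 and Rpn2 it is HFDfri 1.

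Of the 8 OST subunits among the members, 4 were higher at an unadjusted p under 0.05 by edgeR, where 11.4% of all tested genes were. The median log2 fold change of the 8 was 0.23. Rpn1 encodes ribophorin I, a subunit that handles substrates for the catalytic core. Rpn1 was at 76.9, 78.4, 70.7, 67.2 and 79.2 CPM in HFDfre and at 122, 79.8, 99.9 and 87.0 CPM in HFDfri. HFDfri 2 exceeded the highest HFDfre library only narrowly, and HFDfri 1 was the highest. The log2 fold change was 0.38 ± 0.12 (SE) and edgeR's adjusted p was 0.113, and without HFDfri 1 the log2 fold change was 0.24.

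Rpn2, ribophorin II, was at 78.1, 79.9, 73.5, 80.9 and 74.6 CPM in HFDfre and at 94.9, 93.2, 88.1 and 84.6 CPM in HFDfri. All HFDfri libraries were higher, with a small spread within each group. The log2 fold change was 0.22 ± 0.08 (SE) and edgeR's adjusted p was 0.139. Tusc3, a thioredoxin-like subunit, had a log2 fold change of 0.34, Ddost 0.14, Dad1 0.01 and Ost4 -0.17, and none of these passed the unadjusted threshold.

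OST exists in a form with STT3A, which acts while the protein is being threaded through the translocon, and a form with STT3B, which can act afterwards. Stt3a was at 40.8, 51.7, 38.1, 43.7 and 42.9 CPM in HFDfre and at 61.6, 48.5, 63.9 and 41.7 CPM in HFDfri. Stt3b was at 46.3, 45.0, 41.2, 50.3 and 49.1 CPM in HFDfre and at 58.9, 45.0, 61.8 and 52.8 CPM in HFDfri. In both genes HFDfri 1 and 3 were above all HFDfre libraries, as was HFDfri 4 for Stt3b, and the groups overlapped. The log2 fold changes were 0.31 ± 0.13 (SE) for Stt3a and 0.24 ± 0.10 (SE) for Stt3b, with adjusted p of 0.213 and 0.224 by edgeR. Per kilobase of the principal transcript, the HFDfre level was 7.40 ± 0.868 CPM for Stt3a and 10.99 ± 0.843 CPM for Stt3b (SD, n = 5). The log2 ratio of Stt3a over Stt3b differed between the groups by 0.07 ± 0.13 (SE; two-sided exact permutation p = 0.571, adjusted over the 3 ratios tested 0.579).

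The sugar chain that OST transfers is built on dolichol, and Dpagt1 encodes the enzyme of its first step, the target of tunicamycin. Dpagt1 was at 11.7, 14.1, 12.7, 13.8 and 14.2 CPM in HFDfre and at 15.6, 14.4, 22.7 and 18.4 CPM in HFDfri. HFDfri 2 was only just above the highest HFDfre library, and HFDfri 3 stood above all others. The log2 fold change was 0.42 ± 0.13 (SE) and edgeR's adjusted p was 0.118. Of the mannosyltransferases that extend the chain, Alg1 had a log2 fold change of 0.09 and Alg2 one of 0.77 ± 0.38 (SE), which was 0.40 without HFDfri 3. Alg5, which makes the dolichol-linked glucose donor, was at -0.06.

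Dpm1, the catalytic subunit of dolichol-phosphate-mannose synthase, had the largest log2 fold change of the members, 0.81 ± 0.43 (SE) and edgeR's adjusted p was 0.305. It shares 895 bases of exons on the same strand with Gm20716, a gene singled out after its values were seen. Dpm1 had 877, 1400, 2262, 762 and 679 estimated counts in HFDfre and 2043, 3105, 3126 and 592 in HFDfri. Gm20716 had 1502, 1949, 1350, 4156 and 3912 counts in HFDfre and 1074, 0, 0 and 3723 in HFDfri. HFDfre 4, HFDfre 5 and HFDfri 4, which had the most Gm20716 counts, had the fewest Dpm1 counts. With the counts of Gm20716 added to those of Dpm1, the log2 fold change was -0.11, with an adjusted p of 0.739 by edgeR. The direction for Dpm1 depends on whether the counts of Gm20716 are added.

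Srprb shares 888 bases of exons with Gm20425, likewise singled out after its values were seen. Srprb had 560 to 719 counts in HFDfre and 770, 627, 1410 and 595 in HFDfri, so that HFDfri 3 alone stood far above HFDfre, and without HFDfri 3 the log2 fold change was 0.005. Gm20425 had 699 to 3408 counts in HFDfre and 1293, 6776, 6421 and 4227 in HFDfri. With both added, the log2 fold change was 1.09, with an adjusted p of 0.0958 by edgeR.

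**Figure D3:**
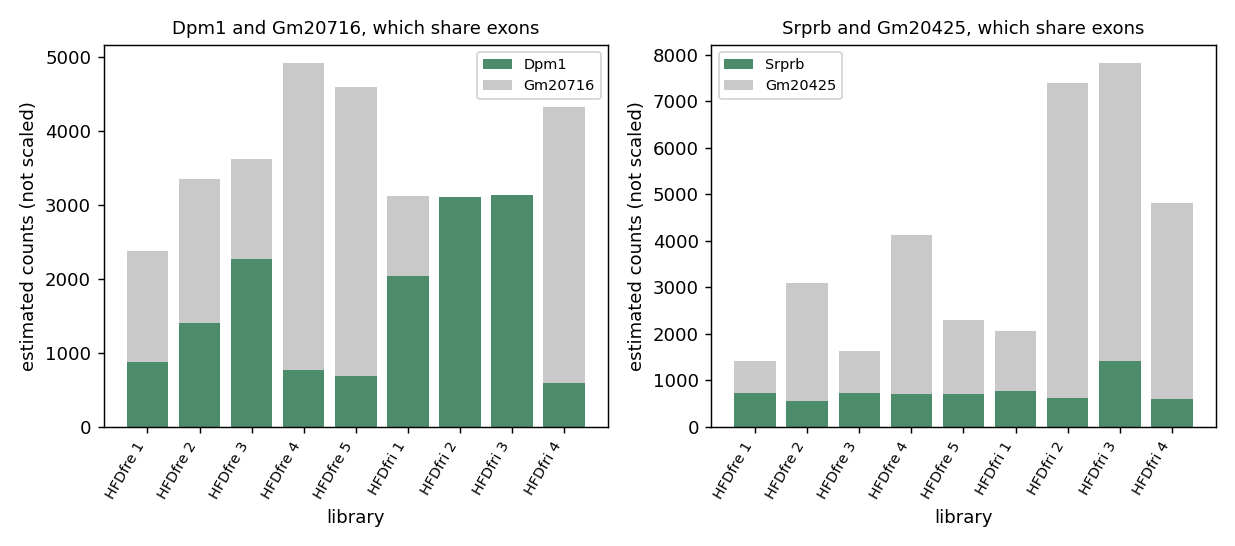
Estimated counts per library (vertical axes, not scaled between libraries) of Dpm1 stacked with Gm20716 and of Srprb stacked with Gm20425. Gm20716 is at 0 in HFDfri 2 and 3, where Dpm1 reaches 3105 and 3126 counts.

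The translocon and TRAP genes had the smallest median differences of the 7 roles. None of the 7 translocon genes and none of the 4 TRAP genes had an unadjusted p under 0.05 by edgeR. Over all tested genes, 11.4% were higher and 9.79% lower at that threshold. The median log2 fold changes of the translocon and TRAP genes were 0.09 and 0.14. Sec61a1, the pore-forming subunit, was at 87.4, 89.2, 83.0, 79.8 and 74.8 CPM in HFDfre and at 137, 74.1, 115 and 80.5 CPM in HFDfri. HFDfri 1 and 3 were above every HFDfre library and HFDfri 2 was below them all. The log2 fold change was 0.30 ± 0.16 (SE) and edgeR's adjusted p was 0.323, and without HFDfri 1 the log2 fold change was 0.10.

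Sec61a2, the second pore subunit, was at 1.91, 2.12, 0.979, 1.90 and 2.09 CPM in HFDfre and at 1.59, 2.09, 1.77 and 1.73 CPM in HFDfri. HFDfre 3 was far below the others. Per kilobase the HFDfre level was 26.1 ± 1.83 CPM for Sec61a1 and 0.734 ± 0.191 CPM for Sec61a2 (SD, n = 5). The log2 ratio of Sec61a2 over Sec61a1 differed between the groups by -0.21 ± 0.35 (SE; two-sided exact permutation p = 0.532, adjusted 0.579), and it turned to 0.003 without HFDfri 1. The remaining translocon genes ranged from -0.03 for Sec61b to 0.18 for Sec63, a co-chaperone that works with BiP at the channel. In TRAP, which aids the entry of weaker signal sequences, the range was from -0.08 for Ssr1 to 0.21 for Ssr2.

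All 5 signal peptidase genes had a positive sign, and their median was 0.23 on the log2 scale. Spcs1 had a log2 fold change of 0.53 ± 0.22 (SE) and Spcs3 one of 0.23 ± 0.08 (SE), with unadjusted p of 0.0302 and 0.0185 by edgeR. Spcs1 was at 17.5 to 26.9 CPM in HFDfre and at 17.7, 40.2, 39.7 and 35.1 CPM in HFDfri, so that HFDfri 1, the highest library for most members, was its lowest HFDfri library. Without HFDfri 1 the log2 fold change of Spcs1 was 0.73, with an adjusted p of 0.0210 by edgeR. Spcs2 was at 0.33 on the log2 scale.

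The catalytic subunit of signal peptidase is either SEC11A or SEC11C. Sec11a was at 32.9, 34.8, 35.4, 38.0 and 34.9 CPM in HFDfre and at 47.3, 31.0, 38.5 and 36.1 CPM in HFDfri. Sec11c was at 16.2, 12.97, 14.6, 12.3 and 12.7 CPM in HFDfre and at 21.5, 10.95, 16.2 and 15.04 CPM in HFDfri. In both, HFDfri 1 was the highest and HFDfri 2 the lowest of the 9 libraries. The log2 fold changes were 0.12 ± 0.11 and 0.21 ± 0.17 (SE), and without HFDfri 1 they were -0.01 and 0.02. The log2 ratio of Sec11c over Sec11a differed by 0.07 ± 0.13 (SE; two-sided exact permutation p = 0.579, adjusted 0.579). The smallest p these exact tests allow is 0.00794.

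In these genes the HFDfri libraries differed among themselves more than the HFDfre libraries did, which was not computed over all tested genes. The coefficient of variation was larger in HFDfri in 31 of the 37 genes, with a median of 17.8% against 8.70% in HFDfre. The median deviation of the members from their own means over all libraries was 0.28 in HFDfri 1, -0.12 in HFDfri 2, 0.16 in HFDfri 3 and -0.01 in HFDfri 4 on the log2 scale. In the HFDfre libraries it ran from -0.12 to -0.03. Over all tested genes no library's median was further than 0.022 from 0, which TMM scaling largely sets in advance. The all-gene median therefore does not show how far other lists of genes deviate. HFDfri 1 was the highest of the 9 libraries in 21 members and HFDfri 3 in 9, whereas HFDfri 2 and HFDfre 3 were each the lowest in 10. These highest and lowest counts were not computed over all tested genes either.

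Counted against HFDfre, HFDfri 1 was above the highest HFDfre library in 29 members, HFDfri 3 in 22, HFDfri 2 in 12 and HFDfri 4 in 10. Over all tested genes these shares were 24.2%, 28.4%, 24.1% and 20.6%. HFDfri 2 was below the lowest HFDfre library in 11 members, where 23.3% of all tested genes were. The roles did not peak in the same library. The median deviation of the translocon and TRAP genes was highest in HFDfri 1 (0.45 and 0.42), and that of the receptor and lipid-linked oligosaccharide genes in HFDfri 3 (0.65 and 0.59). Without HFDfri 1 the median log2 fold change of the members was 0.10, 25 were positive, and Srp9, Ssr1 and Ost4 were lower at an unadjusted p under 0.05 in the edgeR fit, where 12.9% of all genes were. Without HFDfri 3, 6 members were higher at that threshold, where 7.03% of all genes were.

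**Figure D4:**
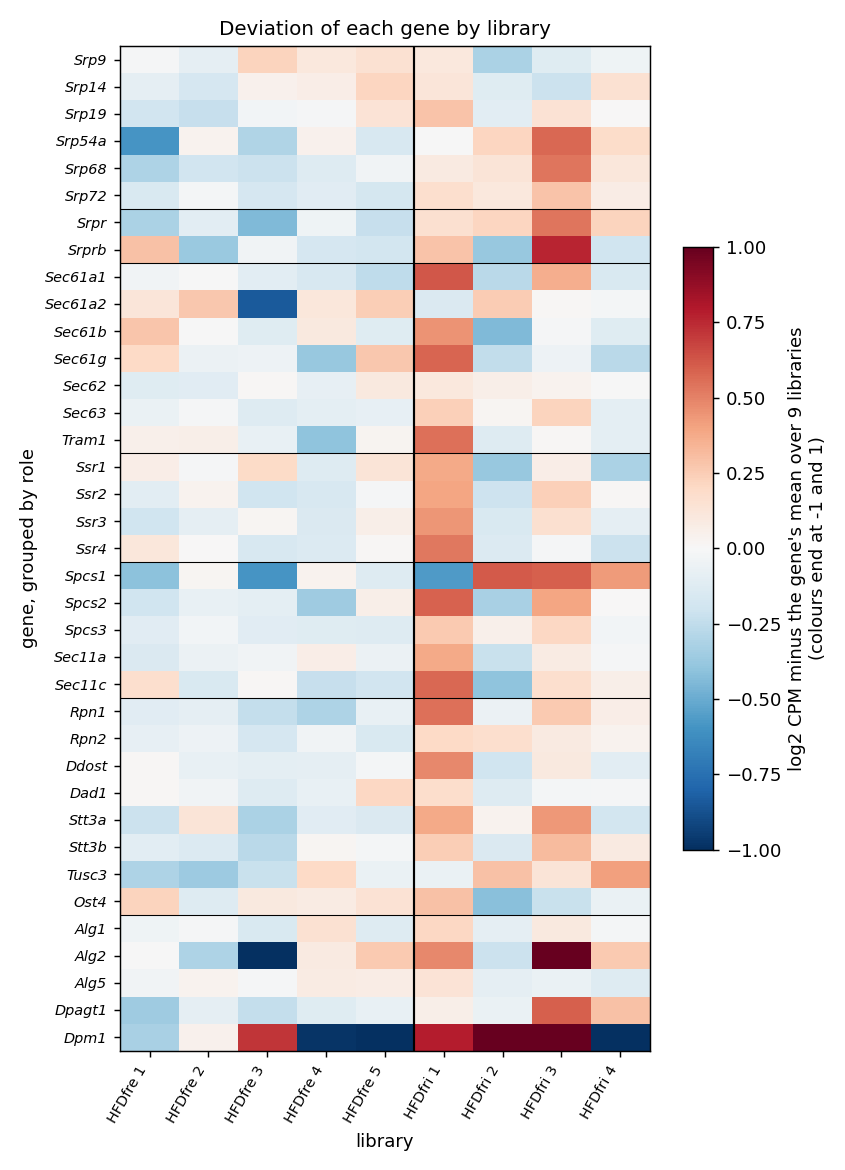
Log2 CPM of each gene minus its mean over the 9 libraries, with genes in rows grouped by role (thin lines) and libraries in columns (HFDfre left of the thick line, HFDfri right of it). Red is dense in HFDfri 1, the highest library in 21 genes, and blue in HFDfri 2 and HFDfre 3, each the lowest in 10. These counts were not computed over all tested genes.

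Other values also differed between the libraries, and their part in the result was not tested. Hspa5, which encodes the ER chaperone BiP and is a reference target of ATF6, was at 220 to 305 CPM in HFDfre and at 708, 220, 984 and 339 CPM in HFDfri, again highest in HFDfri 1 and 3. The ribosomal RNA-like locus Gm26924 took 0.466% to 11.1% of counts. Within the 5 libraries under 3% (HFDfre, n = 2, HFDfri, n = 3), the median log2 fold change of the members was 0.17 and 3 were higher at an unadjusted p under 0.05, where 4.81% of all genes were, and of the other 4 libraries 1 was HFDfri. The library totals ran from 58614917 to 69353439 counts, and single members had between 64 and 15025 counts in a library. Hepatocyte markers summed to 83100 to 89700 CPM in HFDfre and 72600 to 99400 CPM in HFDfri. Most of that sum was Alb, at 52060 to 75720 CPM over all libraries. Single hepatocyte markers went both ways, 2 positive and 4 negative. At an unadjusted p under 0.05 by edgeR, Cps1 was higher (log2 fold change 0.70) and Ttr lower (-0.43). Of cell types rich in this machinery, plasma and B cell markers (5 of 5 tested) were summed. Their sum was 2.23 to 3.61 CPM in HFDfre and 1.49 to 2.09 CPM in HFDfri. All 5 had a negative sign, and Jchain was lower (-0.80) at an unadjusted p under 0.05 by edgeR. Of the pancreatic acinar markers, 4 of 6 were at 0 in every library. Cela1 was the only acinar marker with enough counts to be tested. It was at 9.96 to 16.8 CPM in HFDfre and 17.2 to 25.3 CPM in HFDfri. The sums for cholangiocyte, Kupffer cell, endothelial, stellate and erythroid markers overlapped between the groups. Within them, the cholangiocyte marker Sox9 was higher (0.93) and the stellate marker Des lower (-0.63) at an unadjusted p under 0.05 by edgeR. Of the 4 erythroid markers, the 3 haemoglobin genes had a negative sign, while Alas2, the first enzyme of haem synthesis in red cell precursors, was at 62.1 to 76.7 CPM in HFDfre and rose to 86.1 to 94.0 CPM in HFDfri (log2 fold change 0.40 ± 0.08 (SE), adjusted p 0.0486 by edgeR).

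The other genes of the same pathways were read in the same edgeR fit, where 0 of them had an adjusted p under 0.05. Of 22 further OST and dolichol pathway genes, 13 were positive and 9 negative, with a median log2 fold change of 0.04. At an unadjusted p under 0.05, 2 were higher and 3 lower, where 11.4% and 9.79% of all tested genes were. The 3 with the smallest p were Srd5a3, a polyprenol reductase that makes dolichol (-0.51, adjusted p 0.0758), Alg10b, a glucosyltransferase (1.30, adjusted p 0.107), and Dpm3, which tethers Dpm1 (-0.32, adjusted p 0.189). The OST subunits in this list were Ostc (0.43), Krtcap2 (-0.03), Tmem258 (-0.31) and Magt1 (-0.09). The list of other insertion routes also held Srp54b, Srp54c and Tram2, which are copies or relatives of the members Srp54a and Tram1. Of its 25 tested genes, 5 were higher, Srp54b among them, and 1 lower at that threshold, beside the same all-gene shares. The median of the 25 was 0.03. Their smallest p belonged to Ccdc47 (0.36, adjusted p 0.0651), which acts with multipass membrane proteins at the translocon, followed by Emc9 (-0.22) and Mmgt1 (0.27) of the ER membrane complex.

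The genes that make and trim the sugars were positive throughout. All 5 genes of hexosamine synthesis, which supplies UDP-GlcNAc, were positive, and their median was 0.48. At an unadjusted p under 0.05 by edgeR, 2 of them were higher, where 11.4% of all tested genes were. The 2 were Uap1 (0.48) and Gfpt1, the rate-limiting enzyme (0.64), and Gfpt2 came next (0.84). In both, HFDfri 3 stood well above the rest. Uap1 was at 29.3 CPM there, at 13.4 to 19.7 CPM in the other HFDfri libraries and at 12.2 to 15.5 CPM in HFDfre. Gfpt1 was at 25.5 CPM there, at 9.36 to 12.7 CPM in the other HFDfri libraries and at 7.68 to 10.4 CPM in HFDfre. The level of Gfpt2 was very low, at 0.077 to 0.378 CPM over all libraries. All 6 genes of glycan trimming in the ER were positive, with a median of 0.20. Mogs (0.36) and Uggt1 (0.31) were higher at the unadjusted threshold, beside the same 11.4% of all tested genes, and Ganab (0.20) came next by p.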

How the data were processed

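Liver RNA was extracted with TRIzol and sequenced as paired-end reads. Per the submitters' processing notes, reads were processed with HISAT2 and StringTie on mm10 (versions not given). Annotation and strand setting are not given in the sources used here. The library kit is NEBNext Ultra per the labels but KAPA RNA HyperPrep per the methods. The values the authors deposited are estimated counts per gene, unscaled. Low values pile up at 4 (3990 gene and library pairs, against 2172 at 3 and 1840 at 5), so counting error is only approximated.

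Counts were rounded, filtered with filterByExpr by group and compared as HFDfri minus HFDfre in edgeR 4.0.16 by its quasi-likelihood test (R 4.3.3, TMM, Benjamini-Hochberg over all 14220 tested genes). DESeq2 1.42.0 and limma-voom (limma 3.58.1) were alternatives. Log2 values used a prior count of 2. The edgeR script was tested on simulated data. Ratios of paralogs were compared with two-sided exact permutation tests. Pairs of libraries within a group differed far beyond sampling noise (a chi-square of at least 94.3 per gene), so none was taken for a duplicate. Coordinates and lengths came from GENCODE M21 (GRCm38), which held 96.3% of the identifiers, and promoters from RefSeq.

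The members and lists were chosen with earlier results of these data known. Values per library are given for members with an unadjusted p under 0.05 and no overlap between groups and for 6 paralogs. Of each other list of pathway genes, those past the adjusted threshold are named, or else the 3 with the smallest p. The OST subunits outside the members and the copies of Srp54a are named besides. Marker lists covered hepatocytes, cholangiocytes, Kupffer, endothelial, stellate, plasma and B, pancreatic acinar and erythroid cells.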

Additional observations from a re-analysis of the deposited data

Results flagged for a closer look

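In 7 of 74 sets (each member in each group), 1 library stood apart from the rest by Dixon's test, where chance gives about 3.70. The statistic is the gap to the nearest library divided by the range of the group, and levels are log2 CPM. In HFDfri it was 0.9047 for Srp68 (HFDfri 3 at 5.448, the others at 5.0 to 5.042), 0.8355 for Spcs1 (HFDfri 1 at 4.148, the others at 5.136 to 5.331) and 0.8882 for Dpm1 (HFDfri 4 at 3.288, the others at 5.186 to 5.425). In HFDfre it was 0.8556 for Sec61a2 (HFDfre 3 at 0.01374, the others at 0.946 to 1.103) and 0.7332 for Alg2 (HFDfre 3 at 1.198, the others at 2.753 to 3.319). It was also 0.848 for Spcs3 (HFDfre 2 at 5.265, the others at 5.164 to 5.179) and 0.7104 for Tram1 (HFDfre 4 at 6.203, the others at 6.531 to 6.665).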

How the results depend on the processing

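The median log2 fold change of the members was positive under all 21 alternatives, from 0.10 without HFDfri 1 to 0.256 with library totals in place of TMM, which moved the median of all tested genes to 0.051. Members past the adjusted threshold numbered 4 with DESeq2 (Srpr, Srp68, Srp72 and Rpn1), where 7.27% of all tested genes passed. They numbered 1 (Srpr) with limma-voom, with at least 10 counts in every library, with counts divided by 4, with robust dispersion and with the Gm26924 share as a covariate. Of all tested genes, 1.04%, 1.68%, 1.69%, 1.32% and 0.654% passed under these settings, in that order. Leaving out 1 library gave 0 to 3 members, the 3 being Srp68, Srpr and Spcs1 without HFDfri 1, where 7.65% of all genes passed. Members higher at an unadjusted p under 0.05 numbered 3 within libraries of low Gm26924 share, where 4.81% of all genes were. They numbered 6 to 15 when 1 library was left out, where 7.03% to 12.8% of all genes were. Members lower at that threshold numbered 0 to 3 when 1 library was left out, where 6.6% to 12.9% of all genes were. The ratio of Sec61a2 over Sec61a1 was 0.068 within the low-share libraries and -0.425 to 0.003 when 1 library was left out. The causes were not tested.

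The sign of single members near 0 was not stable. With library totals it turned for Srp14 (0.017), Sec61a2 (0.060) and Sec61b (0.015). With the Gm26924 share as a covariate it turned for Sec61a2 (0.070), Sec61b (0.077), Sec61g (-0.017) and Dad1 (-0.007). Within low-share libraries it turned for Sec61a2 (0.227), Sec61b (0.127), Sec61g (-0.043), Sec62 (-0.006) and Dad1 (-0.035). With a length and GC correction, added after seeing the data, it turned for Srp14 (0.121), Sec61b (0.157) and Dad1 (-0.006). It also turned for Sec61a2 with limma-voom (0.050), and for Dad1 with no filter (-0.001), at least 10 counts (-0.001) and counts divided by 4 (-0.002). Adding Gm20716 to Dpm1, also chosen after seeing the data, gave -0.114.

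Leaving out each library in turn, the log2 fold change changed sign in 10 members. Its range was -0.087 to 0.035 for Srp14, -0.166 to 0.056 for Sec61a2, -0.225 to 0.094 for Sec61b, -0.209 to 0.126 for Sec61g, -0.026 to 0.241 for Tram1. It was -0.262 to 0.017 for Ssr1, -0.097 to 0.188 for Ssr4, -0.012 to 0.205 for Sec11a, -0.024 to 0.230 for Ddost, -0.062 to 0.066 for Dad1.

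In a replicate block with the replicate number as a term, 0 members and 0% of all tested genes passed the adjusted threshold. In that fit 9 members were higher at an unadjusted p under 0.05, where 9.04% of all genes were. The median of the members was 0.196. The signs of Srp14 (0.020) and Sec61a2 (0.101) turned in this paired fit. Libraries with the same number did not deviate together (correlations from -0.136 to 0.0813), so the numbers were not taken to pair the samples. Sec61a2, with 64 to 151 counts in a library, is the member where depth limits the value most.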
